A study of Mus musculus with 35 samples.

Results

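The 8 genes described here are Tacc3 and 7 genes whose products work with it, or beside it, in building the mitotic spindle: Tacc1, Tacc2, Ckap5, Cltc, Tpx2, Kif11 and Numa1. They were taken by name from a count table of 24480 mouse genes, and all 8 had counts in every sample. Tacc3 was chosen by its measured counts, because its RNA was much lower in water-injected 2C embryos than in water-injected zygotes, so its values in that contrast are given as a description, without a test. The partners were picked for what their proteins do, and the question was whether they fell with Tacc3.

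RNA was sequenced from 35 samples of wild-type C57BL/6NRj embryos fertilised in vivo, collected from females 3 to 4 weeks old, with the zygotes of about 5 females pooled. Water and Kdm5b injections were compared at 2 stages: 10 zygotes received water and 10 received Kdm5b-yfp mRNA at about 1150 ng/µl, which codes for the demethylase of H3K4 KDM5B joined to a fluorescent tag; 9 samples of 2C embryos received water and 6 received the mRNA. Samples were taken 5 to 6 h after injection, at 17 h after ovulation for zygotes and at 5.5 to 8 h after division for 2C embryos. The zygotes were single whole embryos. The water 2C samples were 6 single embryos, 1 pool from 2 embryos and 2 pools from 3 embryos, and the Kdm5b 2C samples were 5 single embryos and 1 pool from 3 embryos, each pool holding the surviving blastomeres of damaged embryos. The control was water, so any effect of injecting an RNA as such is part of the Kdm5b groups. The 2C embryos had been frozen and thawed as zygotes, and zygote and 2C libraries were prepared on separate occasions, so that stage, thawing and library day cannot be told apart in any comparison of stages.

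TACC proteins carry a coiled-coil domain at one end. TACC3 is phosphorylated by the kinase Aurora A, binds the microtubule polymerase ch-TOG (gene Ckap5) and clathrin (heavy chain gene Cltc), and with them cross-links the microtubules of kinetochore fibres. TPX2 is released from importins by Ran near chromosomes, activates Aurora A and promotes new microtubules. KIF11 is a kinesin that slides antiparallel microtubules apart and keeps spindles bipolar, and NUMA1 gathers microtubule minus ends at the poles with dynein. Mouse oocytes and early embryos build spindles without centrioles, from proteins that are made largely from RNA stored in the egg, and much of that stored RNA is removed around the first division.

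The 3′ ends of the 8 mRNAs are shown because stored egg RNAs are handled through signals there: the polyadenylation hexamer AATAAA or its variant ATTAAA, and the cytoplasmic polyadenylation element TTTTAT or TTTTAAT, which binds CPEB proteins. The last 30 bases of each annotated 3′ UTR in GENCODE M21, on GRCm38 and read 5′ to 3′ on the transcribed strand, are given with matches to any of these 4 motifs in capitals.
Tacc3: agactaaagtttaatctcaaactcaaagtc
Tacc1: cctgAATAAAaaccgtttaccactgttgca
Tacc2: gtaAATAAAgttttttctttgagtcttggc
Ckap5: acTTTTATaAATAAAgtttgcattaactat
Cltc: atttaaAATAAAttactggactgtggaaat
Tpx2: gtaagccagccccaATTAAAtgttgtttat
Kif11: aattttttaaATTAAAttaTTTTAATtttt
Numa1: ttacttgtaAATAAAgtctatttttctccc
A polyadenylation hexamer stood in the last 30 bases of all 7 partners, as AATAAA in 5 and as ATTAAA in 2 (Tpx2 and Kif11). Tacc3 held neither form and no cytoplasmic element there, nor in the last 100 bases of its 154-base 3′ UTR. A cytoplasmic element was found in Ckap5 (TTTTAT) and in Kif11 (TTTTAAT). Of the 9313 tested genes with an annotated end that matched the count table, 72.9% had AATAAA or ATTAAA in their last 30 bases, 4.07% had TTTTAT and 2.13% had TTTTAAT; only the transcribed strand was searched, and matches could overlap. These 9313 were 75.2% of the 12390 genes tested between stages, and no comparison of changes by motif is given at that coverage. A match or its absence in this window describes the annotated letters only.

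Fragments counted on genes came to between 8705584 and 17797581 a sample. Kdm5b took 2.30% to 10.4% of them in Kdm5b zygotes, 8.27% to 15.8% in Kdm5b 2C samples and at most 0.0189% in any water sample, so that none of the 35 went against its label. Summed over 8 oocyte genes, levels were 3628 to 5538 counts per 1000000 counted fragments (CPM) in zygotes. In 2C samples they were 2023 to 4023 CPM. These ranges overlapped, and the oocyte genes did not all go the same way: Oosp1 had higher medians in 2C samples with either injection. Summed over 8 genes of the 2-cell stage, levels were 9.03 to 39.8 CPM in zygotes and 125 to 524 CPM in 2C samples. A list of 12 cumulus and granulosa cell genes summed to 12.8 to 38.2 CPM over the 4 groups, with Cyp19a1 the highest and Lum at 0 in every sample. Water 2C replicates 2 and 3 stood apart, with 11841 and 12155 genes detected against 13855 to 15301 in the other water 2C samples, and the members' log2 differences that rest on them are given with and without them.

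Within zygotes Tacc3 was the most abundant of the 8 transcripts per length. Its median was 1170 transcripts per 1000000, corrected for exon length (TPM) in water zygotes, with samples from 929 to 1351 TPM. That median was above 99.7% of the genes in the count table, with or without a count. Tpx2 came next at a median of 318 TPM, and the ranges of the pair did not overlap. Tacc2, Cltc and Ckap5 followed at medians of 261, 209 and 178 TPM, each overlapping its neighbour in the order. Numa1 stood below them at 133 TPM without overlap, and Tacc1 and Kif11 were lowest at 69.5 and 53.7 TPM with overlapping ranges. Kdm5b zygotes gave the same order, with Tacc3 at a median of 1181 TPM and Kif11 at 56.1 TPM.

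In 2C samples Tacc3 was sixth of the 8. Its median was 121 TPM in water 2C samples (range 87.5 to 203 TPM) and 150 TPM in Kdm5b 2C samples (range 129 to 203 TPM). Both ranges overlapped that of the gene above it, Numa1 in water samples and Ckap5 in Kdm5b samples, and both lay above that of Tacc1. Tacc2 led in water 2C samples at 234 TPM and Cltc in Kdm5b 2C samples at 252 TPM, and neighbours from the first place to the sixth overlapped in both groups. The medians of Tacc3 in water and Kdm5b 2C samples were still above 93.4% and 94.7% of the genes in the count table. These shares include genes without a count, since 2C samples had a count for 11841 to 15301 of the 24480 genes.

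**Figure D1:**
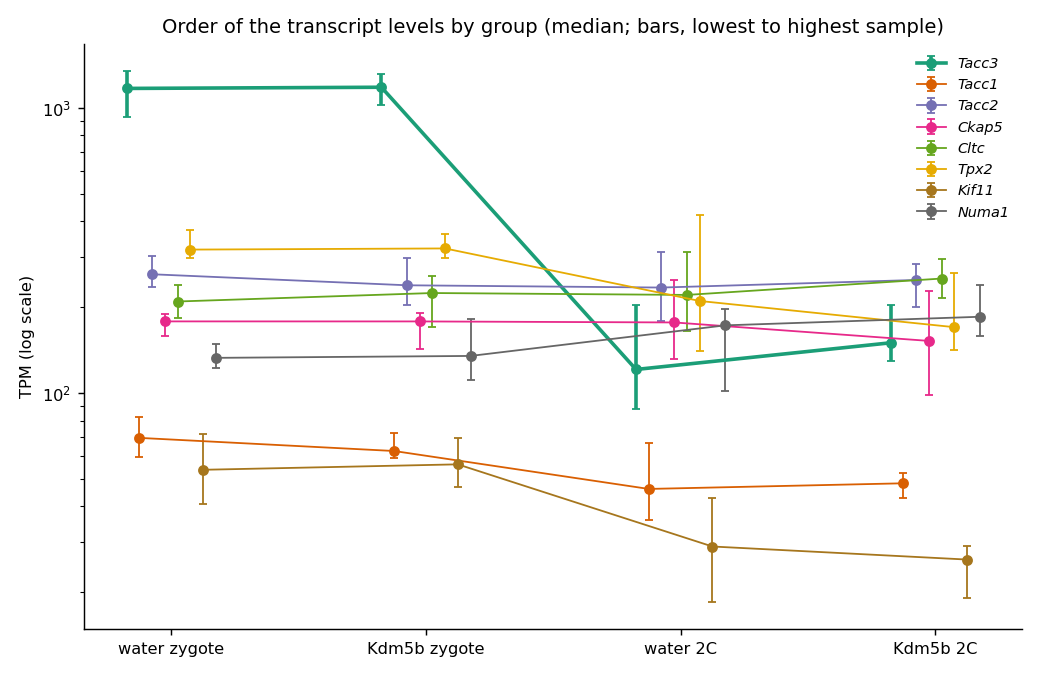
Median level of each gene in each group in TPM, on a log axis, with bars from the lowest to the highest sample and lines joining the values of 1 gene. Tacc3 lay above the other 7 genes in both zygote groups and was sixth, at medians of 121 and 150 TPM, in both 2C groups.

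The make-up of the TACC family differed between stages. Tacc3 accounted for 74.04% to 80.57% of the summed Tacc1, Tacc2 and Tacc3 TPM in water zygotes and 75.8% to 81.7% in Kdm5b zygotes. In 2C samples its share was 27.1% to 37.9% with water and 29.2% to 40.8% with Kdm5b. Tacc2, the longest of the 3 transcripts, made up 13.8% to 21.0% of the sum over all zygotes and 49.8% to 60.1% over all 2C samples, and Tacc1 made up 3.96% to 5.25% and 8.57% to 14.4%. These shares include the contrast that picked Tacc3 and are descriptions.

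**Figure D2:**
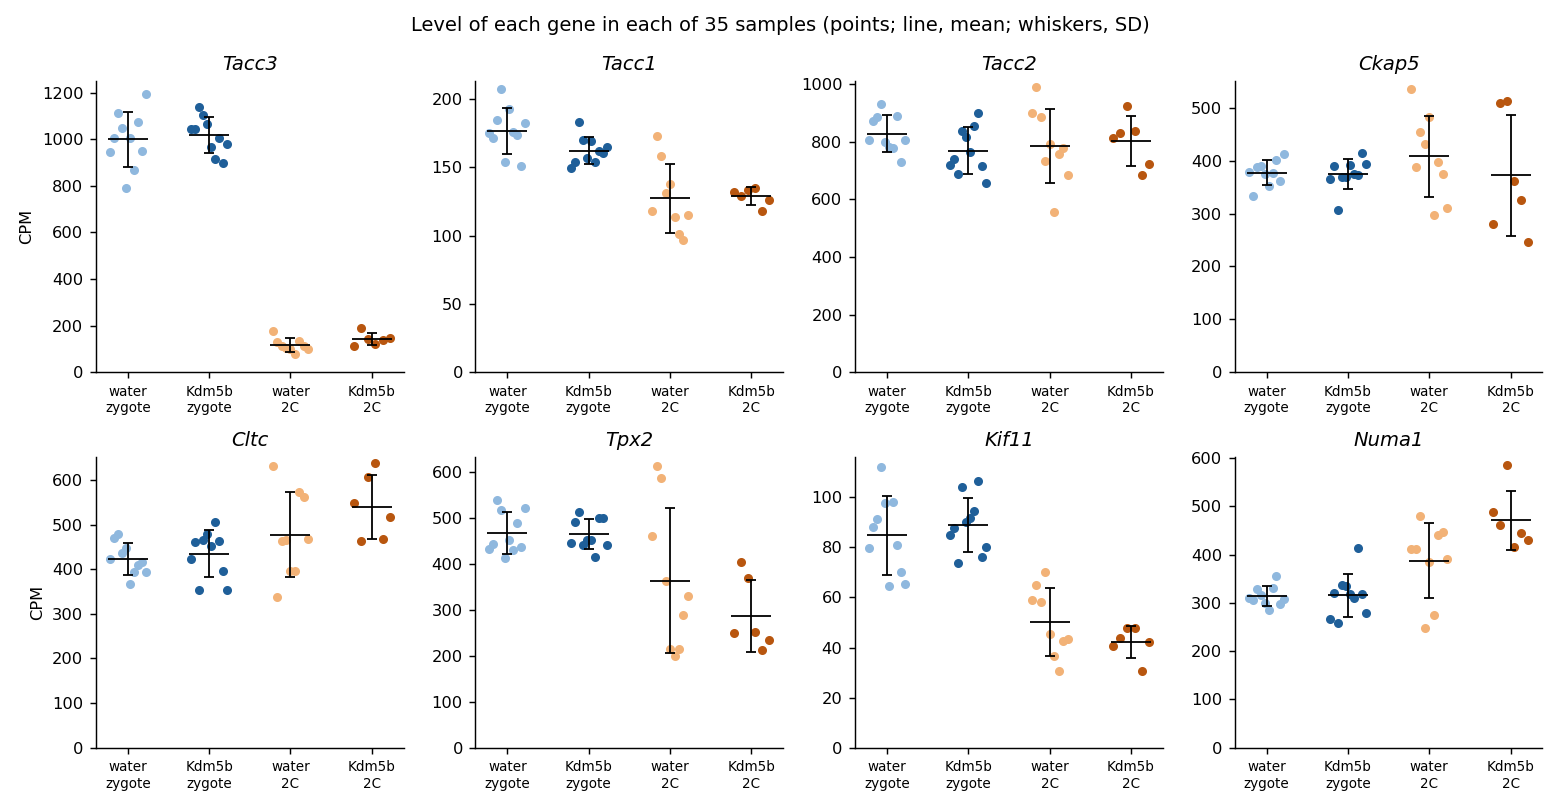
CPM of each gene in each of the 35 samples, by group, with points for samples, a line for the group mean and whiskers for the SD; each panel starts at 0 and has its own scale. Tacc3 ran from 790 to 1195 CPM in zygotes and from 76.01 to 191 CPM in 2C samples, and for the partners the stages lay much closer together.

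The stage difference was tested in Kdm5b-injected embryos, which were not in the water contrast that picked Tacc3. The members and the tests were still chosen with earlier results of these data known. Tacc3, Kif11, Tpx2 and Tacc1 were lower in 2C samples than in zygotes, Numa1 and Cltc were higher, and neither Tacc2 nor Ckap5 passed the test. At an edgeR adjusted p under 0.05 this made 4 members lower, where 29.5% of the 12390 genes tested were lower, and 2 higher, where 29.3% were. With an absolute log2 fold change over 1 as well, 2 members were lower (Tacc3 and Kif11) against 16% of all genes, and 0 were higher against 10.5%. The median log2 fold change was -0.16 over the 8 members, which include Tacc3, picked for its fall, and 0.01 over all genes. Among the partners alone the middle value was that of Ckap5, at 0.002, and only Kif11 passed both thresholds.

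Tacc3 was counted over 15 exons on GRCm38 (chromosome 5, plus strand, 33658128 to 33672202). In Kdm5b zygotes it ran from 901 to 1139 CPM with a median of 1024 CPM, and in Kdm5b 2C samples from 113 to 191 CPM with a median of 139 CPM. Every 2C sample was below every zygote, and the gap between the groups was wider than the range of either. The log2 fold change was -2.83 (SE 0.10, 95% interval -3.03 to -2.63, edgeR adjusted p = 1.06e-15), which left 14.1% of the zygote level (7.11-fold lower). Of the 12390 genes, 0.670% had a lower log2 fold change. CPM are relative to all RNA in a library. Fewer Tacc3 transcripts in an embryo and more RNA of other genes therefore cannot be told apart. Nor do CPM show how much RNA an embryo or a blastomere held. With single intact embryos only, the log2 fold change of Tacc3 was -2.85 (edgeR adjusted p = 3.12e-14).

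In water-injected embryos, the contrast that picked it, Tacc3 ran from 790 to 1195 CPM in zygotes and from 76.01 to 179 CPM in 2C samples. The stages again did not overlap, at a log2 fold change of -3.08 with no test, or -3.11 without water 2C replicates 2 and 3. With all samples it was the only one of the 8 genes whose stages did not overlap in water embryos, where 10.9% of 11968 genes were lower without overlap. Since this contrast picked Tacc3, that count is a description. Without water 2C replicates 2 and 3 Tacc1 did not overlap either: its highest 2C sample was at 138 CPM and its lowest zygote at 151 CPM. In Kdm5b embryos 4 members were lower without overlap (Tacc3, Tacc1, Tpx2 and Kif11), against 16.4% of all genes, and 1 was higher (Numa1), against 12.2%. The groups differ in size between these 2 counts.

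Kif11, the kinesin that keeps the poles apart (chromosome 19, plus strand, 37376403 to 37421859, 22 exons), had the largest fall among the partners. It ran from 73.7 to 107 CPM in Kdm5b zygotes, with a median of 88.9 CPM, and from 30.7 to 47.8 CPM in Kdm5b 2C samples, with a median of 43.0 CPM. All 6 2C samples were below all 10 zygotes, at 47.8% of the zygote level. This was a log2 fold change of -1.07 (SE 0.11, edgeR adjusted p = 1.64e-08). It was -0.99 without Kdm5b 2C replicate 5, the lowest of its group, and beyond -1 in the 15 other fits that left out a sample. In water embryos Kif11 ran from 64.4 to 112 CPM in zygotes and from 30.8 to 70.3 CPM in 2C samples, where 7 of 9 2C samples were below every zygote, at a log2 fold change of -0.73 (-0.83 without water 2C replicates 2 and 3).

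Tpx2, the activator of Aurora A (chromosome 2, plus strand, 152847964 to 152895321, 18 exons), had levels of 414 to 512 CPM in Kdm5b zygotes, with a median of 452 CPM, and 212 to 403 CPM in Kdm5b 2C samples, with a median of 250 CPM. The groups did not overlap, and 62.1% of the zygote level was left, a log2 fold change of -0.69 (SE 0.11, edgeR adjusted p = 1.31e-05). Water embryos looked different: zygotes ran from 412 to 538 CPM and 2C samples from 199 to 612 CPM, the widest spread of any member in any group at a CV of 43.4%. The highest water 2C samples were replicates 2 and 3, at 612 and 585 CPM, the libraries with the fewest genes. In water embryos Tpx2 was at a log2 fold change of -0.33 with them and -0.64 without them.

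Tacc1, a paralogue of Tacc3 (chromosome 8, minus strand, 25154552 to 25201542, 13 exons), fell by less; the microRNA gene Mir8108 overlaps its exons on the same strand. Kdm5b zygotes held 150 to 183 CPM with a median of 161 CPM, and Kdm5b 2C samples 118 to 135 CPM with a median of 130 CPM, without overlap. The log2 fold change was -0.32 (SE 0.07, edgeR adjusted p = 0.000495), with 80.1% of the level left. In water embryos it was -0.45, from 151 to 208 CPM in zygotes to 97.1 to 173 CPM in 2C samples, and 7 of 9 2C samples were below every zygote. The other two were replicates 2 and 3, at 173 and 158 CPM, without which it was -0.58.

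Tacc2, the other paralogue (chromosome 7, plus strand, 130577484 to 130764784, 23 exons), did not pass the test. It ran from 656 to 903 CPM in Kdm5b zygotes and from 687 to 925 CPM in Kdm5b 2C samples, with medians of 754 and 823 CPM, and the groups overlapped over most of their range. The log2 difference was 0.07 with a 95% interval of -0.09 to 0.23 (edgeR adjusted p = 0.466). In water embryos it was -0.05 (-0.14 without water 2C replicates 2 and 3), with 729 to 932 CPM in zygotes and 556 to 990 CPM in 2C samples.

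Ckap5, which encodes the ch-TOG polymerase (chromosome 2, plus strand, 91546322 to 91620665, 43 exons), had nearly the same mean at both stages and a wider spread at the later one. Kdm5b zygotes ran from 306 to 414 CPM with a median of 375 CPM, and Kdm5b 2C samples from 245 to 512 CPM with a median of 344 CPM. Of the 6 2C samples, 2 lay above every zygote and 2 below, and the CV was 7.57% in zygotes and 30.7% in 2C samples. The log2 difference was 0.00 with a 95% interval of -0.24 to 0.24 (edgeR adjusted p = 0.991). In water embryos it was 0.14 (0.12 without replicates 2 and 3), with 332 to 412 CPM in zygotes and 298 to 536 CPM in 2C samples.

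The other two partners were higher in 2C samples. Cltc, the clathrin heavy chain (chromosome 11, minus strand, 86694653 to 86757492, 32 exons), ran from 353 to 506 CPM in Kdm5b zygotes, with a median of 456 CPM, and from 462 to 637 CPM in Kdm5b 2C samples, with a median of 533 CPM. All 6 2C samples were above the zygote mean and 4 were above every zygote. The log2 fold change was 0.32 (SE 0.09, edgeR adjusted p = 0.00396), or 1.25-fold. In water embryos it was 0.20 (0.26 without replicates 2 and 3), with 367 to 478 CPM in zygotes and 339 to 631 CPM in 2C samples.

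Numa1, whose product focuses spindle poles (chromosome 7, plus strand, 101969843 to 102014959, 25 exons), rose most. Its levels were 258 to 413 CPM in Kdm5b zygotes, with a median of 318 CPM, and 416 to 586 CPM in Kdm5b 2C samples, with a median of 454 CPM. Every 2C sample was above every zygote, by a narrow margin at the edge. The log2 fold change was 0.59 (SE 0.09, edgeR adjusted p = 8.45e-06), or 1.504-fold. Water embryos gave 0.33 (0.26 without replicates 2 and 3), with 284 to 356 CPM in zygotes and 249 to 479 CPM in 2C samples, of which 7 of 9 were above every zygote and 2 below.

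**Figure D3:**
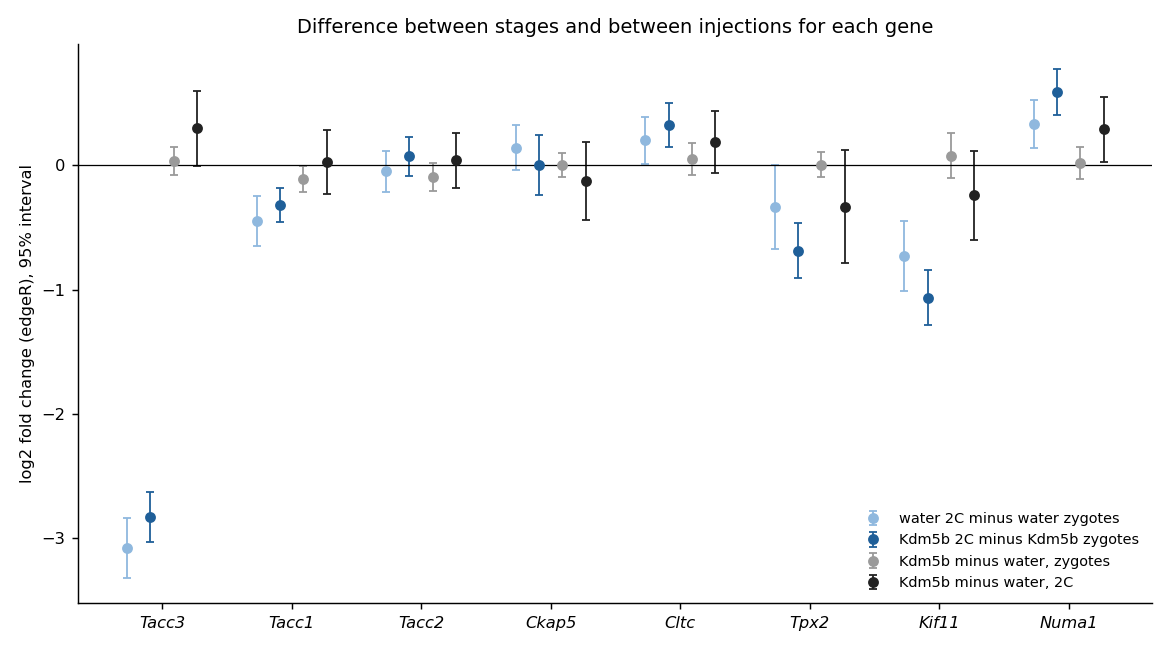
Log2 fold change of each gene from edgeR, with its 95% interval, for the stages in water and in Kdm5b embryos and for the injections in zygotes and in 2C samples. Tacc3 was at -3.08 and -2.83 between stages while the partners lay between -1.07 and 0.59, and the differences between injections lay between -0.33 and 0.30; the water stage contrast is a description.

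Whether Tacc3 fell by more than each partner was tested with the log2 ratio of Tacc3 CPM to partner CPM in each Kdm5b sample. The ratio to Tacc1 was 2.49 to 2.80 in zygotes and -0.23 to 0.57 in 2C samples. The ratio to Tacc2 went from 0.10 to 0.73 down to -2.85 to -2.13, and that to Ckap5 from 1.12 to 1.90 down to -1.87 to -0.73. For all 7 partners the 2C samples lay below the zygotes without overlap. Relative to its binding partners, the log2 ratio of Tacc3 changed by -2.80 against Ckap5 (SE 0.17) and by -3.17 against Cltc (SE 0.18). Against its paralogues the log2 ratio changed by -2.53 for Tacc1 (SE 0.12) and by -2.92 for Tacc2 (SE 0.14).

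The smallest change was against Kif11, where the log2 ratio of Tacc3 CPM to Kif11 CPM went from a mean of 3.52 (SD 0.20, n = 10) in zygotes to 1.74 (SD 0.34, n = 6) in 2C samples, a difference of -1.78 (SE 0.15). Against Tpx2 the difference was -2.12 (SE 0.13), and the largest was against Numa1 at -3.44 (SE 0.15). Exact permutation over the 16 samples, two-sided, gave p = 0.000125 for each of the 7 differences, the smallest that its 8008 regroupings can give, and an adjusted p of 0.000156 over all 12389 genes compared with Tacc3. By the same exact permutation test, at an adjusted p under 0.05, Tacc3 fell relative to 96.5% of those genes, whether they fell less or rose. At that threshold 9 genes fell more than Tacc3, and the rest did not pass in either direction. On this test the partners stood with nearly all other genes. The fall of Tacc3 was thus larger than that of any partner, including the 3 partners that fell.

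**Figure D4:**
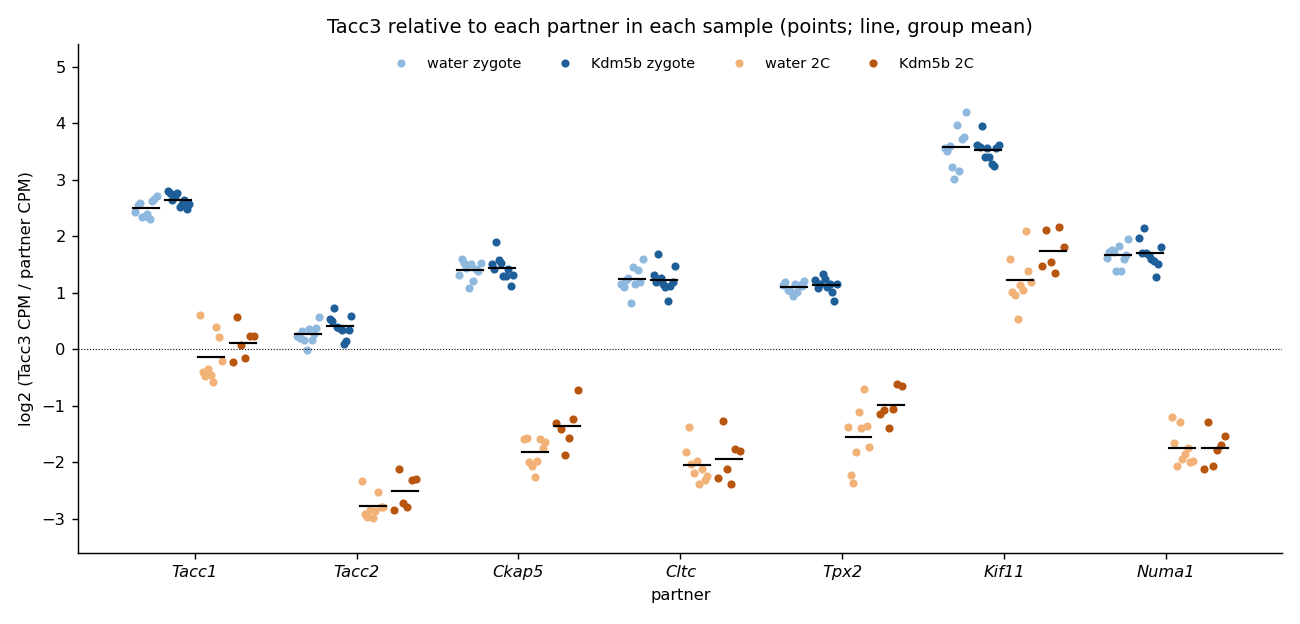
Log2 ratio of Tacc3 CPM to the CPM of each partner in each sample, by group, with a line for the group mean; 0 marks equal CPM, which does not mean equal transcript numbers since the genes differ in length. In both 2C groups the ratios lay below those of both zygote groups for every partner, with differences of -1.78 (Kif11) to -3.44 (Numa1) between the Kdm5b means.

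The second question was whether Kdm5b changed these genes at a given stage. In zygotes none of the 8 passed: all members had an edgeR adjusted p between 0.483 and 0.992, DESeq2 also called 0, and 1 had an unadjusted p under 0.05, where 10.3% of 11933 genes did. Over all genes 0.00838% were higher and 0% lower past both thresholds. Tacc3 ran from 790 to 1195 CPM with water and from 901 to 1139 CPM with Kdm5b, which overlapped almost fully. Its log2 difference was 0.04, with a 95% interval of -0.07 to 0.15. The gene with an unadjusted p under 0.05 was Tacc1, with a log2 difference of -0.11 and 9 of 10 Kdm5b zygotes below the water mean (edgeR adjusted p = 0.483). The 95% intervals of the 8 members lay between -0.22 and 0.26.

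In 2C samples 0 of the 8 passed either, with an edgeR adjusted p between 0.501 and 0.978, 0 by DESeq2 and 1 with an unadjusted p under 0.05, where 9.41% of 12244 genes did. Over all genes 0% were higher and 0.00817% lower past both thresholds. The water samples in both comparisons also took part in the contrast that picked Tacc3. Tacc3 was 76.01 to 179 CPM with water and 113 to 191 CPM with Kdm5b, 5 of 6 Kdm5b samples being above the water mean. Its log2 difference was 0.30, with a 95% interval of -0.01 to 0.60 (edgeR adjusted p = 0.579). It was 0.16 with the index strip (a set of 8 consecutive sequencing indexes) as a covariate (edgeR adjusted p = 0.681) and 0.014 within strip 11 (edgeR adjusted p = 0.986). Strips were inferred from the index numbers, and the labels do not say whether such sets were handled together. Numa1 had the unadjusted p under 0.05: its 6 Kdm5b samples, at 416 to 586 CPM, were all above the water mean of 388 CPM, with a log2 difference of 0.29 (edgeR adjusted p = 0.501). Kif11 was lower than the water mean of 50.2 CPM in 6 of 6 Kdm5b samples, with a log2 difference of -0.24 (95% interval -0.60 to 0.12, edgeR adjusted p = 0.760). Without water 2C replicates 2 and 3 the log2 differences were 0.32 for Tacc3, 0.35 for Numa1, -0.14 for Kif11, 0.16 for Tacc1, 0.12 for Tacc2 and Cltc and -0.11 for Ckap5, and 0 of the 8 members passed.

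Tpx2 was the member whose injection difference depended most on how 2C libraries were grouped. In index strip 11 there were 5 Kdm5b and 3 water 2C samples, and in strip 12 there were 1 and 6. In strip 11 Tpx2 was 461 to 612 CPM with water and 234 to 403 CPM with Kdm5b, without overlap. In strip 12 it was 199 to 362 CPM in the water samples and 212 CPM in the single Kdm5b sample, which lay inside that range. Over all 2C samples the log2 difference was -0.33 (SE 0.23, edgeR adjusted p = 0.728). It was -0.68 with the strip as a covariate (edgeR adjusted p = 0.0438) and -0.88 within strip 11 (edgeR adjusted p = 0.0431). It was -0.04 without water 2C replicates 2 and 3, which belong to strip 11 and are 2 of its 3 water samples (edgeR adjusted p = 0.980). What sets the water samples of strip 11 apart was not tested. Within strips, Tacc3 was 114 to 179 CPM with water and 113 to 191 CPM with Kdm5b in strip 11, and 76.01 to 132 CPM with water and 138 CPM with Kdm5b in strip 12.

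The difference between the stage differences was tested over all 35 samples. None of the 8 members passed (edgeR adjusted p between 0.572 and 0.883, and 0 by DESeq2). The share of all 13778 genes past both thresholds was 0.00726% in each direction, and 0 members had an unadjusted p under 0.05 where 9.1% of genes did. The interaction of Tacc3 includes the water contrast that picked it and is a description. This interaction was 0.26 on the log2 scale (95% interval -0.04 to 0.56). Those of Kif11 and Tpx2 were -0.32 and -0.34, and that of Numa1 was 0.27 (95% interval -0.00 to 0.55). Without water 2C replicates 2 and 3 that of Tpx2 was -0.04 and that of Kif11 -0.22, while Tacc3 was at 0.29 and Numa1 at 0.34. Tacc1 and Tacc2, both at 0.14 with all samples, were then at 0.27 and 0.22, Cltc went from 0.14 to 0.07, and 0 of the 8 passed (edgeR adjusted p between 0.369 and 0.981). These intervals do not show that the stage differences were alike in the 2 kinds of embryo.

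Other spindle genes were counted in 8 lists, 87 genes in all, of which 86 were tested between stages in Kdm5b embryos (Nek6 was too low). Past both thresholds 24 were lower and 7 higher, beside 16% and 10.5% of all genes, and at an edgeR adjusted p under 0.05 alone 38 were lower and 32 higher, beside 29.5% and 29.3%. The lists were not tested as sets. The fall of Tacc3 was larger than that of any of the 86, the nearest being Haus8 at a log2 fold change of -2.71 (SE 0.14). Tacc3 was picked for its fall in water embryos, and only 0.670% of the 12390 genes had a lower log2 fold change than Tacc3. Its place before Haus8 and the other listed genes is therefore a description and was not tested. The median over the 86 was -0.03, close to the 0.01 of all genes. Among clathrin chains and regulators of the TACC3, ch-TOG and clathrin complex, 3 of 7 were lower past both thresholds and 0 higher (16% and 10.5% of all genes, as for the lists that follow). Aurka, the kinase that phosphorylates TACC3, went from 292 CPM ± 15.8 (SD, n = 10) to 84.1 CPM ± 41.7 (SD, n = 6), a log2 fold change of -1.78 (edgeR adjusted p = 2.12e-08). Cltb, a clathrin light chain, fell by 1.03 on the log2 scale, from 251 to 122 CPM (edgeR adjusted p = 9.60e-10), while the heavy chain Cltc rose.

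Of the mitotic kinesins 7 of 13 were lower past both thresholds and 0 higher (16% and 10.5% of all genes), with a median log2 fold change of -1.07. Kif22, a chromosome-binding kinesin, had a log2 fold change of -2.44 and Kif23, which acts in cytokinesis, one of -1.84 (edgeR adjusted p = 5.13e-12 and 1.10e-12). Augmin, which branches new microtubules from old ones, was mixed: 4 of 8 subunits were lower and 1 higher. Haus8 was at -2.71 and Haus3 at -2.12 on the log2 scale (edgeR adjusted p = 3.04e-13 and 1.36e-09), whereas Haus2 rose by 1.67 (edgeR adjusted p = 0.00412) at a level of 0.295 to 1.49 CPM in zygotes and up to 5.43 CPM in 2C samples. Of 11 genes of the Ran pathway, 4 were lower and 1 higher. Dlgap5 and Nusap1, which bind spindle microtubules, fell, with log2 fold changes of -2.15 and -1.998 (edgeR adjusted p = 1.46e-13 and 3.00e-10), and Hmmr, which recruits TPX2 to microtubules, rose by 1.03 (edgeR adjusted p = 0.000126). Hmmr ran from 14.8 to 26.4 CPM in zygotes and from 25.5 to 79.7 CPM in 2C samples, and these ranges overlapped at the edge.

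Of genes of microtubule plus ends, where ch-TOG acts, 6 of 8 were higher at an edgeR adjusted p under 0.05 and 0 lower (29.3% and 29.5% of all genes), and Clasp2 was past both thresholds with a log2 fold change of 1.10 (edgeR adjusted p = 2.28e-10). In the gamma-tubulin ring list, beside 10.5% higher and 16% lower over all genes, 2 of 11 were higher past both thresholds (Tubg2 at 1.01 and Tubgcp6 at 1.52, edgeR adjusted p = 6.67e-11 and 0.00611) and 1 lower (Tubgcp5 at -1.24, edgeR adjusted p = 2.37e-08). Tubgcp6 was low, at 0.227 to 2.27 CPM in zygotes. Dynein, dynactin and the cortical partners of NUMA1 had 1 of 13 higher and 1 lower past both thresholds: Gnai1, a G protein subunit, at 1.33 and the dynein chain gene Dync1li2 at -1.52 (edgeR adjusted p = 8.05e-08 and 5.50e-06). Of 15 organising centre genes tested, 4 were lower and 1 higher past both thresholds. The shares over all genes for these 2 lists are again 16% lower and 10.5% higher. The kinase gene Nek2 had a log2 fold change of -1.49 and Pcnt, which encodes pericentrin, one of -1.23 (edgeR adjusted p = 7.01e-11 and 7.91e-10), and Stil, needed to form centrioles, one of 1.21 (edgeR adjusted p = 0.000178). Stil was low, at 4.09 to 11.4 CPM in zygotes and 6.56 to 24.9 CPM in 2C samples, and these ranges overlapped.

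**Figure D5:**
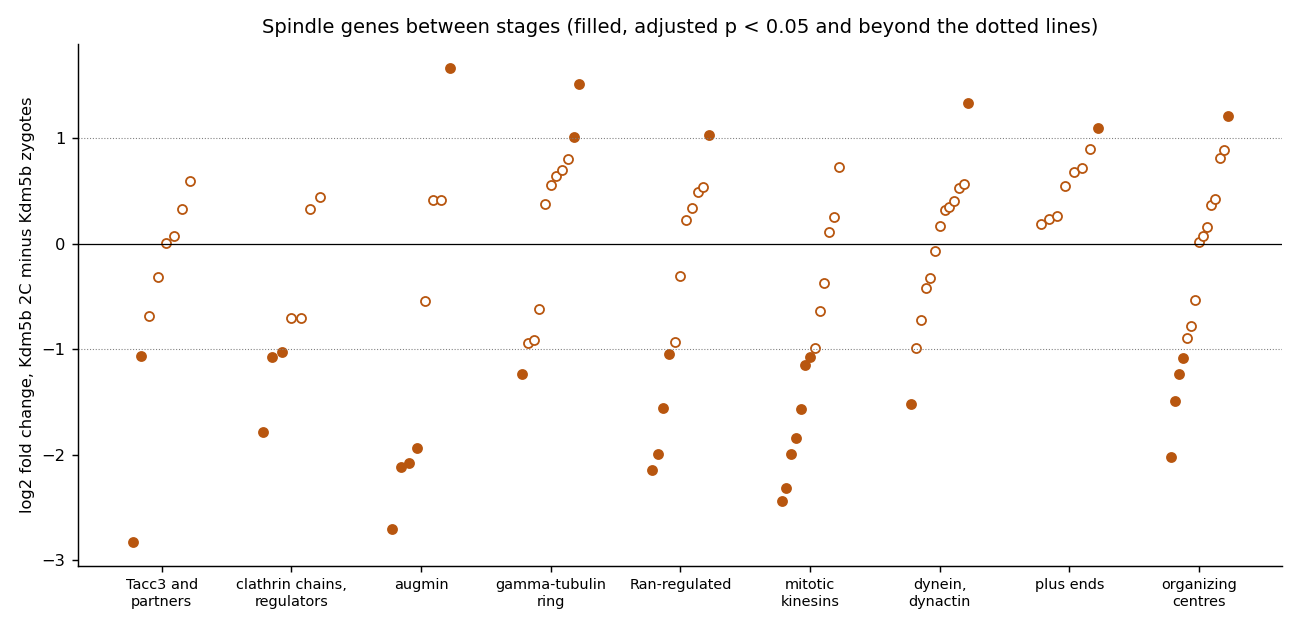
Log2 fold change of Kdm5b 2C samples against Kdm5b zygotes for the 8 genes and for the 86 tested genes of 8 spindle lists, 1 point a gene. Filled points passed both thresholds; Tacc3 is the lowest point at -2.83, and the plus-end list has no point below 0.

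For the injections, 0 of the 86 genes passed in zygotes or in 2C samples by edgeR (0 past the adjusted p in both; 17 and 11 with an unadjusted p under 0.05, beside 10.3% and 9.41% of all genes). The smallest p belonged in zygotes to Cdk5rap2, a recruiter of gamma-tubulin, with a log2 difference of -0.31 (edgeR adjusted p = 0.0745), and in 2C samples to Slain1, a partner of ch-TOG, with one of 0.39 (edgeR adjusted p = 0.324).

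The genes whose levels over the 35 samples were most like those of Tacc3 were not its partners. Likeness was measured as the root-mean-square difference of log2 CPM, each gene centred on its own mean, among 13777 other genes. The 5 nearest were Clk1, a kinase of splicing factors (0.29), Zar1l, a relative of the zygote arrest gene Zar1 (0.29), Gspt2, a translation termination factor (0.30), and Taf1a and Taf1b, subunits of the RNA polymerase I factor SL1 (0.30 and 0.31). Clk1 had medians of 230 and 226 CPM in water and Kdm5b zygotes, and of 31.1 and 46.9 CPM in water and Kdm5b 2C samples. Gspt2 likewise went from 304 and 297 CPM to 35.4 and 35.8 CPM. Among the partners Kif11 came nearest, at a difference of 1.11 and place 1687, followed by Tpx2 at 1.26 (place 2736) and Tacc1 at 1.32 (place 3264), and Numa1 was farthest at 1.71 (place 7972). This measure depends on the size of a change as well as its direction. Pearson's r with Tacc3 over the same samples, which leaves size out, was 0.84 for Kif11, 0.78 for Tacc1, 0.67 for Tpx2, 0.12 for Tacc2, -0.02 for Ckap5, -0.42 for Cltc and -0.60 for Numa1. Both measures include the water samples in which Tacc3 was chosen and are descriptions. The 35 samples fall into 2 stages whose libraries were prepared apart, and all genes compared share that split.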

How the data were processed

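RNA of 35 single embryos or small pools was sequenced with a stranded, randomly primed full-length kit in paired reads of 100 bp. The authors trimmed with fastp 0.21.0, aligned with STAR 2.7.3a to GRCm38 and assigned read pairs to RefSeq genes by sense strand with featureCounts 1.5.1. The table they deposited holds raw gene counts. Their table of repeats was not used.

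The Kdm5b row was removed. The quasi-likelihood test of edgeR 4.0.16 (R 4.3.3) was run on only the groups compared, after TMM and filterByExpr with a minimum count of 10, and p-values were adjusted by Benjamini-Hochberg over all genes tested. Calls needed an adjusted p under 0.05 and, for both thresholds, an absolute log2 fold change over 1. CPM were scaled by TMM, TPM used the deposited exon lengths, and log2 ratios used a prior count of 2. Ratios were tested by exact permutation over samples in Python 3.11.15. The fits were tested on simulated data with 200 changed genes among 12390. Of genes changed by 1, 1.5 and 3 (log2), 63.6%, 86.2% and 94.2% were recovered between stages in Kdm5b embryos. Recovery meant an edgeR adjusted p under 0.05 in the right direction, and 15 unchanged genes were called at that adjusted p alone. The data held far more changes, with 29.5% of genes lower and 29.3% higher, so these shares do not give the recovery in the data. Alternatives were DESeq2 1.42.0 (size factors, Wald test), other filters, the Kdm5b row kept, a single fit, a replicate block, the index strip, single intact embryos and each sample left out in turn.

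The 8 members, the spindle lists and the tests were chosen with earlier results of these data known. All 8 members are named, with, from each list, the 2 higher and 2 lower genes of smallest p past both thresholds between stages, the 1 of smallest p for each injection, and the 5 nearest profiles. The labels number biological replicates but do not say which share a litter or collection, so p-values measure the spread between these samples. No 2 samples of a group were the same within sampling noise.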

Additional observations from a re-analysis of the deposited data

Results flagged for a closer look

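In 2 of the 32 sets of samples (8 genes in 4 groups) a sample lay far from the rest of its group by Dixon's test (chance marks about 1 in 20). Ckap5 was at 306 CPM in Kdm5b zygote replicate 3, where the next lowest of the 10 was at 366 CPM. Numa1 was at 413 CPM in Kdm5b zygote replicate 8, where the next highest was at 338 CPM; the stage difference of Numa1 in Kdm5b embryos lay between 0.51 and 0.64 on the log2 scale whichever sample was left out.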

How the results depend on the processing

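In Kdm5b embryos Tacc3 had a log2 fold change between stages of -2.94 to -2.77 over the 16 fits without 1 sample and passed both thresholds in all 16, and the 7 ratios to its partners passed in every fit. Genes higher between stages (1301 in Kdm5b and 1101 in water embryos) numbered 1988 and 1902 with no filter on low counts and 722 and 672 with a mean of at least 50 counts. For the injections few genes passed. In zygotes the 1 higher gene became 0 with DESeq2's Wald test, 2 with the Kdm5b row kept, 0 in a single fit, 2 in strip 8 and 0 in strip 9, and the 0 lower genes became 1 with no filter, 1 in strip 8 and 2 in strip 10; without 1 sample they ran from 0 to 2 and 0 to 1. In 2C samples the 0 higher genes became 1 with DESeq2, with no filter and with the Kdm5b row kept, 15 in a single fit, 6 with the strip as a covariate and 4 in strip 11. The 1 lower gene became 6 with DESeq2, 2 with no filter, 2 with a mean of 50, 55 in a single fit, 0 in single intact embryos, 47 with the strip as a covariate and 66 in strip 11; without 1 sample they ran from 0 to 1 and 0 to 2. For the interaction (1 higher, 1 lower) these were 2 higher with no filter, 0 higher and 2 lower with a mean of 50, 4 lower with DESeq2, 2 and 10 in single intact embryos, and 0 and 3 without water 2C replicates 2 and 3. The cause was not tested.

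Directions turned only for members that had not passed. Between stages in Kdm5b embryos, Tacc2 was at -0.0018 with no filter and Ckap5 at -0.070 with no filter, -0.0094 in a single fit, -0.0091 with the replicate block and -0.12 to 0.091 without 1 sample. For the injection in zygotes, Ckap5 was at -0.0025 with DESeq2's size factors, -0.0026 with its Wald test, -0.00066 with no filter, -0.0033 with a mean of 50, -0.0051 with the Kdm5b row kept, -0.0079 in a single fit, -0.044 in strip 8, and -0.016 to 0.032 without 1 sample. Tpx2 was at -0.00028 with DESeq2's size factors, -0.00034 with its Wald test, -0.00081 with a mean of 50, -0.0029 with the Kdm5b row kept, -0.0062 in a single fit, -0.015 in strip 8, -0.036 in strip 10 and -0.013 to 0.027 without 1 sample. In strip 8 Cltc was at -0.073, Kif11 at -0.071 and Numa1 at -0.077; in strip 9 Tacc2 was at 0.051; in strip 10 Tacc3 was at -0.20, Cltc at -0.12 and Numa1 at -0.033, and Numa1 ran from -0.037 to 0.048 without 1 sample. For the injection in 2C samples, Tacc1 was at -0.080 with the replicate block, -0.087 in single intact embryos, -0.10 with the strip as a covariate and -0.19 in strip 11, and Tacc2 at -0.11 with the covariate and -0.16 in strip 11; without 1 sample they ran from -0.012 to 0.097 and -0.0085 to 0.088. Fits within strips and without water 2C replicates 2 and 3 were chosen after seeing the data.

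Same-numbered samples showed little shared deviation: 0 of 6 pairs between stages in Kdm5b embryos and 1 of 10 pairs in zygotes had a correlation over 0.1. This cannot exclude a shared collection, and the main fits did not treat the samples as pairs. With the replicate block 1004 genes were higher and 2047 lower between stages in Kdm5b embryos, 816 and 1673 in water embryos, 1 and 0 for the injection in zygotes, and 0 and 3 for that in 2C samples. In no comparison did every sample correlate best with its own number (1 of 6 did between stages in Kdm5b embryos and 2 of 6 for the injection in 2C samples). By Pearson's correlation 3 of the 5 profiles nearest to Tacc3 (Clk1, Taf1a and Zar1l) were again among the nearest 5. In 2C samples 6 against 9 samples limit what could be seen: the 95% interval of the injection difference of Tacc3 ran from -0.01 to 0.60.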
